A study of Mus musculus with 9 samples.

Results

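Imprinted genes were followed through single-cell colonies of mouse brain tumor stem cells (BTSC) in which Gpd1 had been knocked out (KO) with Cas9. The set held 10 genes of fetal growth and neural development, Nnat, H19, Igf2, Igf2r, Peg3, Peg10, Meg3, Plagl1, Grb10 and Ndn, chosen by symbol because an earlier look at the same table had shown losses and gains among them. Of these, 9 were analysed among the 21899 genes of the table, and Meg3, a maternally expressed noncoding RNA, was not analysed here. All 9 passed the filter on low values, which asked for an average of 10 or more across the 9 libraries. Because KO against control was the contrast they were chosen from, their values in it are given as a description, with no test.

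Poly(A) RNA libraries were sequenced in 3 groups, sgRNA1 KO, sgRNA2 KO and control, with 3 libraries each. Both KO groups were BTSC transfected by lipofection with the lentiCRISPRv2 vector, which carries Cas9, puromycin resistance and 1 of the guides against Gpd1, the cytosolic glycerol-3-phosphate dehydrogenase. After puromycin selection they were expanded from picked colonies of single-cell origin. The control libraries were BTSC, and the labels do not say whether they received the vector or came from picked colonies. The labels also do not give the tumor model, strain or age. In bulk RNA of this kind, fewer cells that express a gene and less RNA per cell cannot be told apart.

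Imprinted genes are transcribed mainly from the copy inherited from 1 parent, because methylation laid down in the germ line at a control region marks the copies differently. The marks are copied at each cell division by the maintenance methyltransferase, and genes of a cluster share 1 control region. Many imprinted genes set fetal growth, and several are expressed in the developing brain and in neural stem cells. The read counts here sum both parental copies, so which copy gave the RNA was not measured.

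The start regions of 3 members are shown as background, and their relation to the expression values was not tested. Nnat had the lowest KO levels relative to control, Peg3 has a second gene starting within its window, and Grb10 has more than 1 annotated start that a count per gene cannot separate. Each sequence covers 250 bases before to 50 bases after the start, from RefSeq on build GRCm38.p6, 5' to 3' on the gene's own strand, with every CG in capitals. The motif searched was CG, which is its own reverse complement and is the dinucleotide that carries the methylation mark.
Nnat, chr2:157559828-157560127, plus strand: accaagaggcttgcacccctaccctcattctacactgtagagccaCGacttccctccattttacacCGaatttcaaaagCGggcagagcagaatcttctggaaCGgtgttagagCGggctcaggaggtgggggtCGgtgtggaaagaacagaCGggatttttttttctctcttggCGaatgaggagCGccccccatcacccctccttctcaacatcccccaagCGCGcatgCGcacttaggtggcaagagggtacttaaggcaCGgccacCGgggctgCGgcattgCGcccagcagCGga
Peg3, chr7:6730370-6730669, minus strand: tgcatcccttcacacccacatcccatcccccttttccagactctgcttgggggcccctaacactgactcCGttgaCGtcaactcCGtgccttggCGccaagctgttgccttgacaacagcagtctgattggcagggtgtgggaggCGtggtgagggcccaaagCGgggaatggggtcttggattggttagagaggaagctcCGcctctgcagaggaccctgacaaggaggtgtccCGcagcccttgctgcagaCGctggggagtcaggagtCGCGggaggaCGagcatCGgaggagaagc
Grb10 start 1, chr11:12037371-12037670, minus strand: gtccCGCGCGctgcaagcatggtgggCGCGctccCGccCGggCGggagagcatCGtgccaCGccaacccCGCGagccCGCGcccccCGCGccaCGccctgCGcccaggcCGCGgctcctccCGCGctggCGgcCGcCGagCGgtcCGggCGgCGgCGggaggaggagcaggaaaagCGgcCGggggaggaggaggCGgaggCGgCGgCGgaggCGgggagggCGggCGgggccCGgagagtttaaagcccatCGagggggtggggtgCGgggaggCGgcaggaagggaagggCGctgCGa
Grb10 start 2, chr11:12027922-12028221, minus strand: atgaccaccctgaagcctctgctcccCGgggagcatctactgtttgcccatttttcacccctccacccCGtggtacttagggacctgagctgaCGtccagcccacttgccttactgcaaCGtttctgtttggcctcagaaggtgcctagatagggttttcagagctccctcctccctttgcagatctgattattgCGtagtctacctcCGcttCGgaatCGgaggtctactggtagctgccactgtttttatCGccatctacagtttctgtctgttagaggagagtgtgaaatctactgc
Among 32841 RefSeq windows of the same length, 94.6% held at least 1 CG and the median held 7. The Nnat window held 17 CG, a number that 31.4% of all windows reached, and the Peg3 window held 13, reached by 37.9%. At Grb10, start 1 held 45 CG, reached by 1.93% of windows, and start 2 held 9, reached by 45.8%. The annotated start of Usp29 on the plus strand, at 6730578 on chromosome 7, lay inside the Peg3 window. Promoter windows were matched for 8 of the 10 members, 7 of them with values here.

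Library totals of normalized reads ranged between 39781901 and 42975283, and counting error matters for the scarcest genes only. Gpd1 itself was below all 3 controls in each KO library, at 3299, 1347 and 21351 in sgRNA1 KO, 10812, 10812 and 6945 in sgRNA2 KO, and 25106, 26566 and 25836 in control. The library of sgRNA1 KO replicate 3 kept 82.6% of the control mean, and the difference of -1.99 ± 0.72 (log2, SE) did not pass (limma adjusted p = 0.0516), though it did without that library (0.0183), without sgRNA1 KO replicate 2 (0.0401) or without sgRNA2 KO replicate 1 (0.0497). Over all genes, replicate 3 of sgRNA1 KO and replicate 1 of sgRNA2 KO resembled each other (r = 0.991). Their correlation with the controls was 0.962 to 0.972, and that of the remaining KO libraries was 0.909 to 0.945. These 2 libraries are called the near-control libraries, and values are given with and without them. The median SD of a gene's log2 value was 0.323 in sgRNA1 KO, 0.344 in sgRNA2 KO and 0.0859 in control (n = 3 each). Nothing in the labels shows that the control libraries were separate cultures, and p-values measure only the spread between these libraries. Of 9 stem cell markers, Sox2, Nes, Olig2, Cd44, Vim, Msi1, Pax6 and Fabp7 had at least 1375 normalized reads in every library, and Prom1 had 3 to 31 in KO and 7 to 15 in control. The summed level was 223633 to 311656 in KO and 337420 to 382054 in control, with Sox2 and Pax6 called higher in KO and Nes, Cd44 and Vim lower.

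Losses and gains shared by all colonies were counted beside the share over all genes tested. As the members were chosen for moving, these counts are descriptions. Nnat, H19 and Plagl1 lay below all 3 controls in each of the 6 KO libraries, which was also the case for 23.8% of the 15827 genes tested. Nnat and H19 were at least 2-fold below the control mean in each KO library, against 2.51% of genes tested. No member lay above all controls in each KO library, where 21.1% of genes tested did, and none was at least 2-fold higher in each, where 3.48% did. Igf2r, Peg3, Grb10 and Ndn had KO libraries on both sides of the control range, as did 34.7% of genes tested. Ndn was 2-fold lower in 1 KO library and 2-fold higher in another, a split found for 2.43% of genes tested. Among KO libraries the SD of log2 values was largest for Grb10 (1.76), Nnat (1.24) and Peg10 (1.14) and smallest for Plagl1 (0.27).

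**Figure D1:**
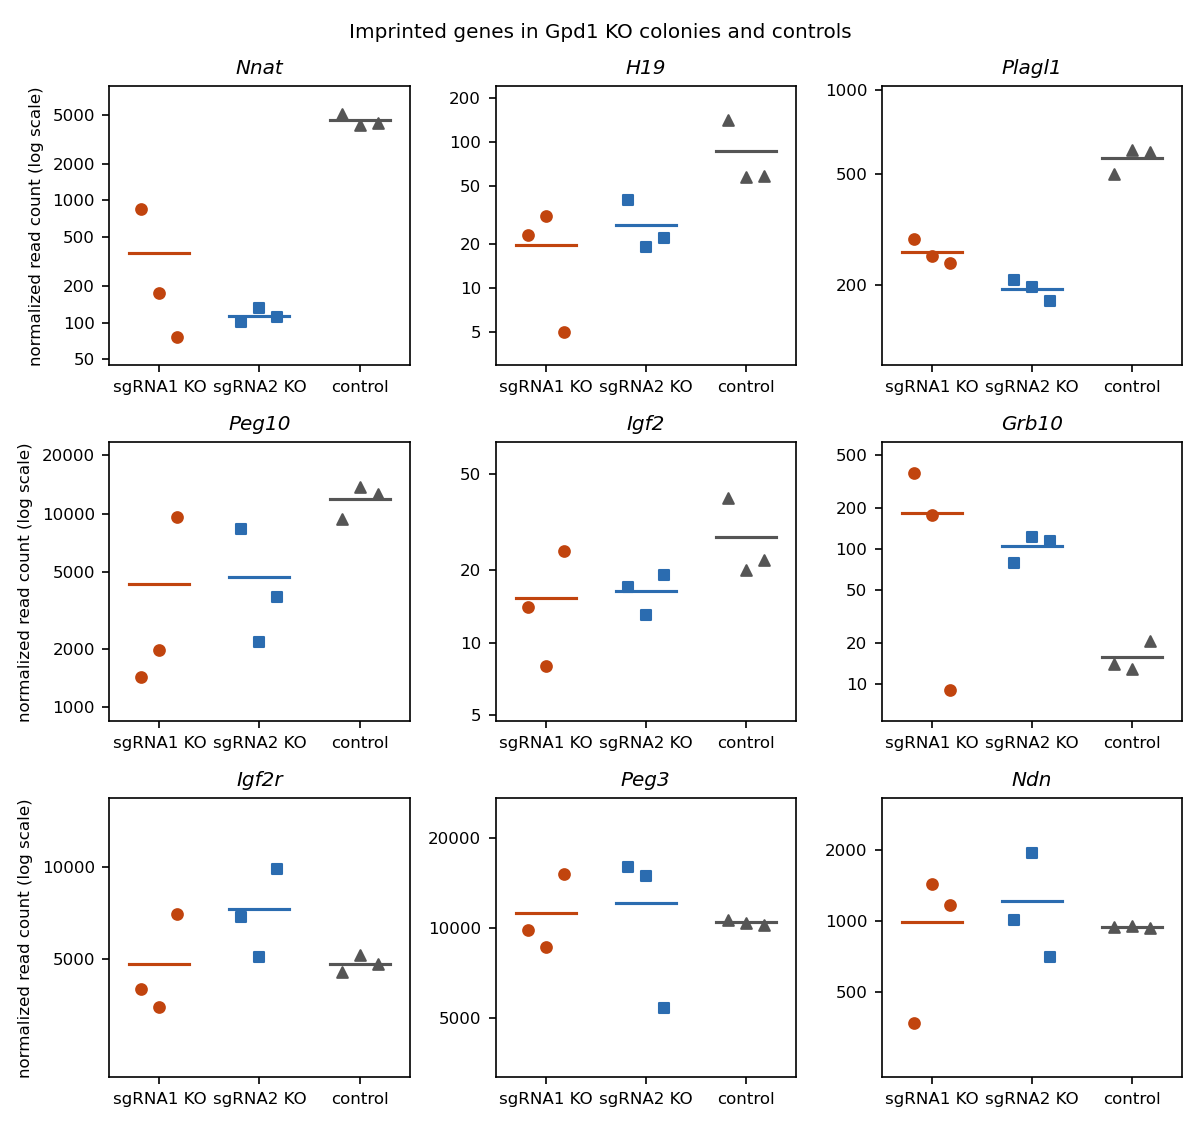
Normalized read counts (log scale, each panel with its own range) of the 9 members in sgRNA1 KO, sgRNA2 KO and control libraries, with points for the libraries and a line at the group mean (n = 3 each). All KO points of Nnat, H19 and Plagl1 lie below the controls, while those of Igf2r, Peg3, Grb10 and Ndn lie on both sides.

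Among the growth genes, Igf2 and H19 lie next to each other on chromosome 7 and share a control region. H19, a noncoding RNA expressed from the maternal copy and the host of the microRNA Mir675, lies at 142575529 to 142578143 on the minus strand of mm10. It had 23, 31 and 5 normalized reads in sgRNA1 KO, 40, 19 and 22 in sgRNA2 KO, and 143, 58 and 59 in control. The highest KO library stood below the lowest control, and sgRNA1 KO replicate 3 was lowest, with 5 reads and a 95% Poisson interval of 1.62 to 11.7 that covers counting error only. Mean levels were 23.3 ± 11.8 in KO (SD, n = 6) and 86.7 ± 48.8 in control (SD, n = 3). The difference was -1.92 ± 0.57 (SE) on the log2(value + 1) scale and -1.71 without the near-control libraries.

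Igf2, the paternally expressed fetal growth factor, was scarce. It had 14, 8 and 24 normalized reads in sgRNA1 KO, 17, 13 and 19 in sgRNA2 KO, and 40, 20 and 22 in control. Only sgRNA1 KO replicate 3 lay within the control range, and the other 5 KO libraries lay below it, from 19 reads, 1 under the lowest control, down to 8 in sgRNA1 KO replicate 2. Replicate 2 of each guide was at least 2-fold under the control mean. The Poisson interval was 15.4 to 35.7 around the 24 reads of sgRNA1 KO replicate 3 and 3.45 to 15.8 around the 8 of sgRNA1 KO replicate 2. Both overlapped the 12.2 to 30.9 around the 20 reads of control replicate 2, though overlap of intervals does not show that 2 counts are alike. The interval of 28.6 to 54.5 around the 40 reads of control replicate 1 overlapped that of the 24 reads and not that of the 8. The mean was 15.8 ± 5.49 in KO and 27.3 ± 11.0 in control (SD, n = 6 and 3), a log2 difference of -0.75 ± 0.36 (SE). Of the exon length of Igf2 (142650766 to 142666816, minus strand), 62.8% is shared on the same strand with the annotated gene Gm49394, so its counts are uncertain.

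H19 is known from mesenchymal cells, so pericyte and fibroblast markers were looked at. All were scarce, with no single value above 75. For the 5 of 8 analysed, the summed level was 21 to 40 in KO and 101 to 120 in control. Only 2 of them passed the filter on low values and were tested, and 1, the pericyte gene Rgs5, was called lower in KO. Every gene with deposited values summed to at least 10 over the 9 libraries, so no analysed marker could be at 0 in all of them. The part of such cells in the H19 and Igf2 values was not tested. Endothelial markers summed to 43 to 207 in KO and 139 to 187 in control (4 of 6 analysed). Of the 3 tested, limma called 1 lower in KO and 0 higher. Microglial markers summed to 5 to 10 in KO and 12 to 18 in control (3 of 6). Choroid plexus markers summed to 6 to 14 in KO and 7 to 11 in control (4 of 6).

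Igf2r, the maternally expressed receptor that carries Igf2 to the lysosome and so limits it, was abundant and split the colonies. Its normalized read counts were 3977, 3485 and 7024 in sgRNA1 KO, 6862, 5056 and 9863 in sgRNA2 KO, and 4519, 5134 and 4812 in control. Replicates 1 and 2 of sgRNA1 KO lay below every control and 3 KO libraries lay above, with sgRNA2 KO replicate 3 highest at a log2 ratio of 1.03 to the control mean. The means were 6044 ± 2367 in KO and 4822 ± 308 in control (SD, n = 6 and 3), and the difference was 0.24 ± 0.29 (SE), or 0.09 without the near-control libraries. Igf2r lies on the minus strand of chromosome 17 from 12682406 to 12769664.

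Grb10, an adaptor that dampens signalling from the insulin and Igf1 receptors, was higher in 5 of 6 KO libraries. It is known in mouse to be expressed from the maternal copy in most tissues and from the paternal copy, through another promoter, in neurons. Counts were 365, 179 and 9 in sgRNA1 KO, 79, 122 and 115 in sgRNA2 KO, and 14, 13 and 21 in control. The 5 higher KO libraries stood at 4.94 to 22.8 times the control mean, and sgRNA1 KO replicate 3 stood below all controls. Its 9 reads carried a Poisson interval of 4.12 to 17.1, which covered the control values of 14 and 13 and not that of 21. The other near-control library, sgRNA2 KO replicate 1, had 79 reads. Averages were 145 ± 122 in KO and 16.0 ± 4.36 in control (SD, n = 6 and 3), with a log2 difference of 2.52 ± 0.91 (SE) and 3.39 without the near-control libraries. The gene spans 11930508 to 12038683 on the minus strand of chromosome 11, and both start regions shown above lie within it, so the counts do not say which start was used.

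Plagl1, a paternally expressed zinc finger transcription factor that restrains the cell cycle, gave the most even loss. The 3 sgRNA1 KO libraries had 292, 253 and 240 normalized reads, the sgRNA2 KO libraries 209, 196 and 175, and the controls 500, 607 and 601. No KO library came near the control range, and every sgRNA2 KO library lay below every sgRNA1 KO library. KO levels averaged 227.5 ± 42.6 and control levels 569 ± 60.1 (SD, n = 6 and 3). The log2 difference was -1.33 ± 0.18 (SE), also -1.33 without the near-control libraries and between -1.43 and -1.26 with any single library left out. Plagl1 occupies 13060504 to 13131694 on the plus strand of chromosome 10.

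Peg10, a paternally expressed gene derived from a retrotransposon and needed for the placenta, fell into separate levels. Its counts were 1438, 1988 and 9591 in sgRNA1 KO, 8299, 2174 and 3727 in sgRNA2 KO, and 9348, 13790 and 12667 in control. The near-control libraries were the highest of the KO libraries, with 9591 inside the control range and 8299 just under it, and the other 4 stood at log2 ratios of -3.05 to -1.68 to the control mean. KO averaged 4536 ± 3522 and control 11935 ± 2310 (SD, n = 6 and 3). The log2 difference of -1.75 ± 0.58 (SE) was -2.42 without the near-control libraries. Peg10 lies on the plus strand of chromosome 6 from 4747306 to 4760517.

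Peg3, a paternally expressed zinc finger protein with roles in growth and maternal behaviour, did not shift in 1 direction. It had 9814, 8641 and 15138 normalized reads in sgRNA1 KO, 15967, 14865 and 5380 in sgRNA2 KO, and 10637, 10413 and 10236 in control. Both near-control libraries and sgRNA2 KO replicate 2 lay above the narrow control range and the other 3 below it, with sgRNA2 KO replicate 3 lowest. KO had 11634 ± 4310 and control 10429 ± 201 (SD, n = 6 and 3). The log2 difference was 0.06 ± 0.32 (SE), and -0.20 without the near-control libraries, a change of sign around 0. Peg3 lies on the minus strand of chromosome 7 from 6703892 to 6730431.

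Of the neural genes, Nnat was far below control in every colony and nearly lost in 5 of 6. Nnat encodes neuronatin, a small membrane proteolipid of developing neurons expressed from the paternal copy, and spans 157560078 to 157562522 on the plus strand of chromosome 2. It had 855, 174 and 76 normalized reads in sgRNA1 KO, 101, 131 and 111 in sgRNA2 KO, and 5076, 4173 and 4315 in control. All KO libraries stood far below the controls, at 18.9% of the control mean in sgRNA1 KO replicate 1 and at 1.68% to 3.85% in the other 5. The near-control libraries were the lowest of all KO libraries, at 76 and 101 reads, so the loss of Nnat did not follow the ranking of the libraries by all genes. KO averaged 241 ± 302 and control 4521 ± 486 (SD, n = 6 and 3), a log2 difference of -4.81 ± 0.64 (SE). It was -4.38 without the near-control libraries and -5.29 to -4.59 with any single library left out.

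Ndn, a paternally expressed MAGE protein that restrains growth of neurons and their precursors, split around a flat control level. It had 372, 1430 and 1166 normalized reads in sgRNA1 KO, 1004, 1940 and 702 in sgRNA2 KO, and 943, 952 and 936 in control. None of the KO libraries lay within the control range. sgRNA1 KO replicate 1 was at a log2 ratio of -1.34 to the control mean and sgRNA2 KO replicate 2 at 1.04. The SD of log2 values was 0.84 in KO and 0.01 in control, and the mean difference was 0.04 ± 0.43 (SE), or -0.03 without the near-control libraries. Ndn occupies 62346569 to 62350262 on the plus strand of chromosome 7.

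For the 6 neuronal markers (Tubb3, Rbfox3, Snap25, Syt1, Map2 and Dcx), the summed level was 47474 to 125766 in KO and 42752 to 44054 in control. Map2, a dendritic microtubule protein gene, made up nearly all of it, at 46736 to 123669 in KO and 42431 to 43613 in control. Of the other 5, Tubb3 had 119 to 1851 in KO and 212 to 344 in control, and Rbfox3, Syt1 and Snap25 had 2 to 480 in KO and 1 to 82 in control. Dcx had 2 to 159 in KO and 4 to 6 in control. Its log2 difference of 2.82 did not pass (limma adjusted p = 0.0560, and 0.0007 to 0.151 over the other settings). Of the 5 genes tested, 0 were called lower and Map2 was called higher (limma adjusted p = 0.0478), a call lost without any 1 of the controls (0.112, 0.132 and 0.125), sgRNA1 KO replicate 1 (0.0793) or 2 (0.0695), or sgRNA2 KO replicate 2 (0.0887). The part of neuronal cells in the Nnat and Ndn values was not tested.

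**Figure D2:**
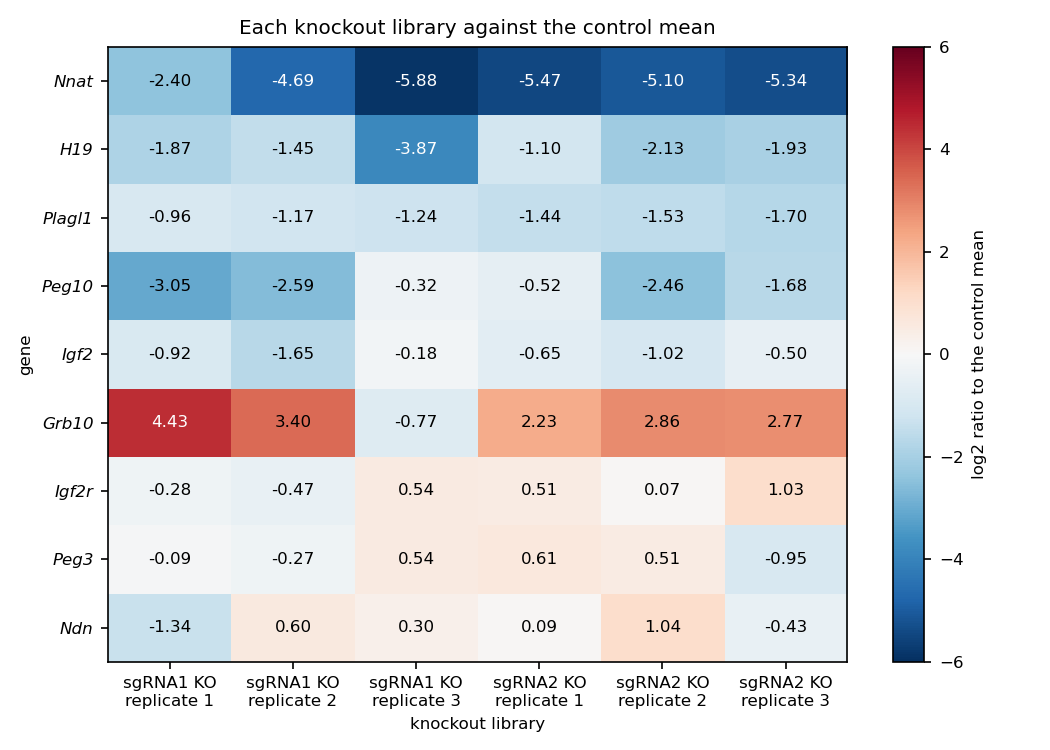
Log2 ratio of each KO library to the control mean for the 9 members, with blue below and red above 0. Nnat, H19, Plagl1, Peg10 and Igf2 are below 0 in every column, the last of these weakly in some, Grb10 is above 0 in 5 of 6, and Igf2r, Peg3 and Ndn change sign between columns.

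Read by colony, each KO library had 3 to 5 of the 9 members at least 2-fold lower and 0 to 2 at least 2-fold higher. The share over all genes tested is given beside each, and the gains lay near it. In sgRNA1 KO replicate 1, Nnat, H19, Peg10 and Ndn were 2-fold lower and Grb10 2-fold higher, where 17.4% of genes tested were that much lower and 17.6% higher. Replicate 2 of sgRNA1 KO had Nnat, H19, Igf2, Peg10 and Plagl1 lower and Grb10 higher, against 16.3% and 16.9% of genes tested. Its replicate 3 had Nnat, H19 and Plagl1 lower and no member 2-fold higher, against 7.10% and 8.00%. In sgRNA2 KO replicate 1 the same 3 genes were lower and Grb10 was higher, against 6.56% and 7.28%. Replicate 2 of sgRNA2 KO had Nnat, H19, Igf2, Peg10 and Plagl1 lower, with Grb10 and Ndn higher, against 14.8% and 15.1%. Its replicate 3 had Nnat, H19, Peg10 and Plagl1 lower, with Igf2r and Grb10 higher, against 12.4% and 13.1%. The median size of the log2 ratio over the 9 members ran between 0.54, in sgRNA1 KO replicate 3, and 1.68, in sgRNA2 KO replicate 3. Over all genes tested it ran between 0.34 and 0.68. As the members were chosen for moving, this difference is a description.

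Levels were compared between members per kilobase of exon. In KO the order of means was Peg3 (873 normalized reads per kilobase), Peg10 (680), Igf2r (649), Ndn (298), Nnat (132), Plagl1 (29.1), Grb10 (15.9), H19 (9.49) and Igf2 (2.77). In control it was Nnat (2472), Peg10 (1790), Peg3 (783), Igf2r (518), Ndn (255), Plagl1 (72.8), H19 (35.2), Igf2 (4.78) and Grb10 (1.76). Nnat thus had the top mean in control and the fifth in KO. Neighbours in the control order did not overlap in range. In KO, Nnat at 41.6 to 467 per kilobase did not overlap Plagl1 at 22.4 to 37.3, while every other pair of neighbours overlapped, as Peg3 at 404 to 1198 did with Peg10 at 216 to 1439.

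The guides were compared because a difference between them could mark colonies by guide. No member differed between sgRNA1 KO and sgRNA2 KO after adjustment over all genes (limma, adjusted p between 0.778 and 0.999), and 0 of 15827 genes were called (0.00%). At an unadjusted p under 0.05 the test called 474 genes (2.99%), among them 1 member. That member was Plagl1, at 262 ± 27.1 in sgRNA1 KO and 193 ± 17.2 in sgRNA2 KO (SD, n = 3 each), a log2 difference of 0.43 ± 0.17 (SE). At the adjusted threshold, the count of 0 depended on the libraries kept. It was 182 without sgRNA1 KO replicate 3 and 30 without both near-control libraries. Without sgRNA1 KO replicate 1 or sgRNA2 KO replicate 1 it was 1. The largest differences were 0.98 ± 0.70 for Nnat, set by the 855 reads of sgRNA1 KO replicate 1, -0.68 ± 0.65 for H19 and -0.60 ± 0.30 for Igf2r (SE). The SE between guides ran up to 1.10, for Grb10, and a p that misses the threshold does not show that the guides gave alike levels.

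Imprinted neighbours of the members were compared next, because genes of a cluster share a control region. They come from a list of 68 genes outside the member set that are known as imprinted in mouse, of which 49 were analysed and 42 tested. Imprinting can be limited to some tissues, and whether each gene is imprinted in these cells was not measured. Correlations below are over the 6 KO libraries, which share their normalization and the ordering by nearness to the controls, and are descriptions. Adjusted p-values are from limma over all genes.

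At the Nnat locus the neighbours moved apart. Blcap, a small membrane protein gene whose span on the minus strand contains Nnat without sharing exon bases, had 5606, 4692 and 3221 normalized reads in sgRNA1 KO, 3382, 4645 and 3564 in sgRNA2 KO, and 2407, 2305 and 2327 in control. All KO libraries were above all controls, with a log2 difference of 0.80 ± 0.18 (SE, limma adjusted p = 0.00802). Nnat, 5.34% of its control mean over the same libraries, and Blcap varied in the same order among the KO libraries (r = 0.86, n = 6).

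The Peg10 locus showed the same opposite pattern. Sgce, the epsilon-sarcoglycan gene, starts 99 bases from Peg10 on the other strand and is known to be paternally expressed as Peg10 is. It had 1107, 922 and 796 normalized reads in sgRNA1 KO, 367, 820 and 851 in sgRNA2 KO, and 291, 266 and 263 in control. Sgce rose in KO by 1.49 ± 0.30 (log2, SE, limma adjusted p = 0.00523), while Peg10 had 5 KO libraries below all controls. Across the KO libraries, those with less Peg10 tended to have more Sgce (r = -0.70, n = 6). Further along the cluster, Ppp1r9a, which encodes the actin binding protein neurabin, rose by 0.54 ± 0.13 (adjusted p = 0.0100). The paraoxonase genes Pon2 and Pon3 rose by 0.80 ± 0.11 (adjusted p = 0.00130) and 0.83 ± 0.23 (adjusted p = 0.0175). The Pon3 call was lost without control replicate 1 (adjusted p = 0.0876) or 2 (0.0559).

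At the Peg3 locus the neighbours followed Peg3. Usp29, a ubiquitin protease gene that starts 147 bases from Peg3 on the other strand, had 229, 200 and 254 normalized reads in sgRNA1 KO, 313, 290 and 138 in sgRNA2 KO, and 244, 246 and 236 in control. Its order over the KO libraries was nearly that of Peg3 (r = 0.97, n = 6), with sgRNA2 KO replicate 1 highest and sgRNA2 KO replicate 3 lowest for both. Zim1, a zinc finger gene of the same cluster known to be maternally expressed, had 335, 323 and 706 in sgRNA1 KO, 662, 555 and 285 in sgRNA2 KO, and 429, 365 and 405 in control, and also followed Peg3 (r = 0.92). Neither had a mean difference that passed the test (limma adjusted p = 0.822 for Usp29 and 0.693 for Zim1).

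Igf2r and Airn, the antisense noncoding RNA that silences the paternal copy of Igf2r in mouse, also varied together. Airn had 27, 32 and 116 normalized reads in sgRNA1 KO, 119, 59 and 138 in sgRNA2 KO, and 106, 102 and 118 in control. Both genes were lowest in sgRNA1 KO replicates 1 and 2 and highest in sgRNA2 KO replicate 3 (r = 0.95, n = 6). The mean difference of Airn, -0.67 ± 0.53 (SE), did not pass (limma adjusted p = 0.337). The genes lie on opposite strands and share no exon bases, but Airn runs through part of the span of Igf2r, and whether counting used strand is not given in the sources used here.

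The cluster around Ndn held both directions. Peg12, a paternally expressed gene, fell by 1.36 on the log2 scale (SE 0.27, limma adjusted p = 0.00552) and followed Ndn over the KO libraries (r = 0.77, n = 6). Atp10a, a phospholipid flippase gene at the far end, fell by 2.50 (SE 0.41, adjusted p = 0.00255), with 399, 234 and 776 normalized reads in sgRNA1 KO, 991, 329 and 631 in sgRNA2 KO, and 2461, 3088 and 2941 in control. The ubiquitin ligase gene Ube3a fell by 0.57 (SE 0.15, adjusted p = 0.0137), a call lost without control replicate 2 (0.0643) or 3 (0.0547). In the other direction, Mkrn3, a ring finger gene, rose by 0.81 ± 0.16 (adjusted p = 0.00470), and Snrpn, a splicing protein gene, rose by 0.82 ± 0.13 (adjusted p = 0.00248). These had little relation to Ndn, with r between -0.21 and 0.38. Snrpn shares 27.3% of its exon length with the annotated gene Gm38393 on the same strand, so its counts are less certain.

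Ddc, the dopa decarboxylase gene beside Grb10, had 247, 54 and 72 normalized reads in sgRNA1 KO, 103, 94 and 25 in sgRNA2 KO, and 26, 17 and 26 in control. It rose by 1.76 ± 0.58 (log2, SE, limma adjusted p = 0.0361). In sgRNA1 KO replicate 3, where Grb10 was below all controls (9 reads), Ddc was above them (72 reads). In sgRNA2 KO replicate 3, where Grb10 was high, Ddc was within the control range (r = 0.28, n = 6). The Ddc call was lost without any 1 of the controls (adjusted p 0.0805, 0.134 and 0.0884), without sgRNA2 KO replicate 1 (0.0556) or 2 (0.0667), without both near-control libraries (0.0754) and under quantile normalization (0.0596).

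**Figure D3:**
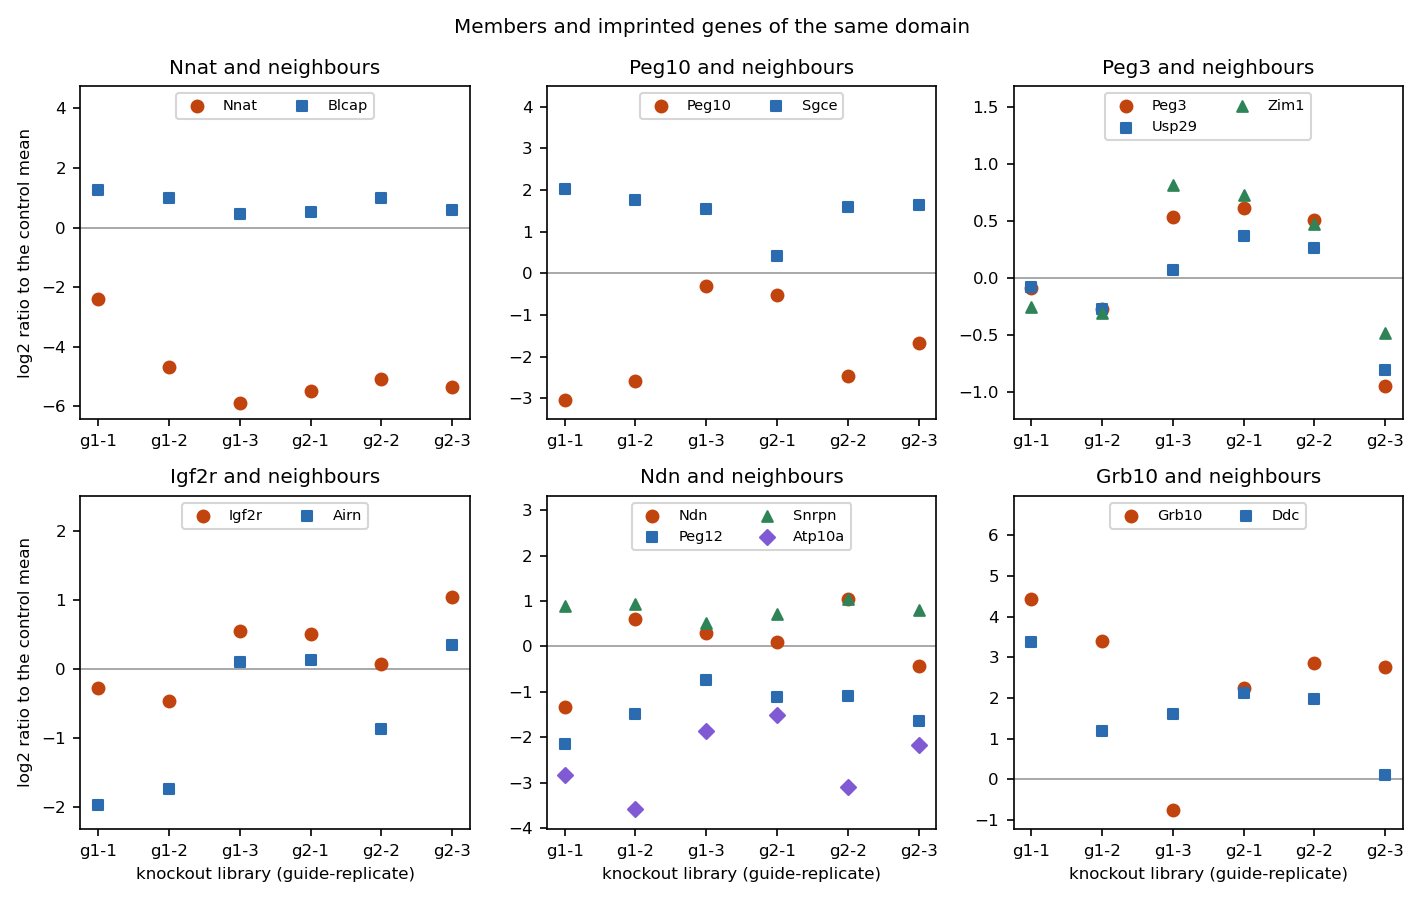
Log2 ratio to the control mean in each KO library (g1-1 is sgRNA1 KO replicate 1, and so on) for 6 members and imprinted genes of the same cluster, each panel with its own range. Nnat and Blcap, and Peg10 and Sgce, lie on opposite sides of 0, while Usp29 and Zim1 follow Peg3 and Airn follows Igf2r.

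Over the whole list of other imprinted genes, both directions were found. Of 42 tested, limma called 13 higher and 9 lower (22 in all). Over all genes tested it called 19.1% higher and 20.2% lower, 39.3% in all. For these imprinted genes the median log2 difference was 0.09, against -0.01 over all genes tested. The count was 17, 15 and 16 without control replicate 1, 2 and 3, where 3904, 2777 and 3006 of all 15827 genes tested were called. All 6 KO libraries lay above all controls for 11 of these genes and below for another 11, against 21.1% above and 23.8% below of all genes tested. The largest rises were those of Sfmbt2, a polycomb group gene, by 2.25 ± 0.38 (SE, adjusted p = 0.00283), and Cdkn1c, a cell cycle inhibitor, by 2.11 ± 0.50 (adjusted p = 0.0103), both on the log2 scale. Cdkn1c was a gain from low counts, with 86, 72 and 43 normalized reads in sgRNA1 KO, 24, 71 and 20 in sgRNA2 KO, and 7, 9 and 15 in control, and 30.7% of its exon length is shared with an antisense gene. Ddc, Sgce, Pon3 and Snrpn completed the 6 largest rises.

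The largest falls were those of Htr2a, a serotonin receptor gene, which fell by 3.44 on the log2 scale (SE 0.59, limma adjusted p = 0.00292), and of Atp10a. Htr2a had 2, 15 and 6 normalized reads in sgRNA1 KO, 5, 1 and 2 in sgRNA2 KO, and 44, 55 and 55 in control, so each KO library was under every control. Mest, a paternally expressed hydrolase gene, had 23011, 19986 and 61095 in sgRNA1 KO, 77229, 29406 and 18312 in sgRNA2 KO, and 78022, 95408 and 91826 in control. As with Peg10, its highest KO libraries were the near-control ones. It fell by 1.44 (SE 0.45, adjusted p = 0.0302), which did not pass without sgRNA1 KO replicate 1 (0.0543) or 2 (0.0516), sgRNA2 KO replicate 2 (0.0566) or any 1 of the controls (0.0689, 0.103 and 0.0949), and 23.1% of its exon length is shared with Copg2 on the other strand. Inpp5f, an inositol phosphatase gene, fell by 0.98 (SE 0.13, adjusted p = 0.000984). Tssc4 fell by 0.68 (SE 0.20, adjusted p = 0.0223), a call lost without any 1 of the controls (0.0773, 0.0703 and 0.0739) and under quantile normalization (0.0566). Peg12 was the remaining 1 of the 6 largest falls.

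**Figure D4:**
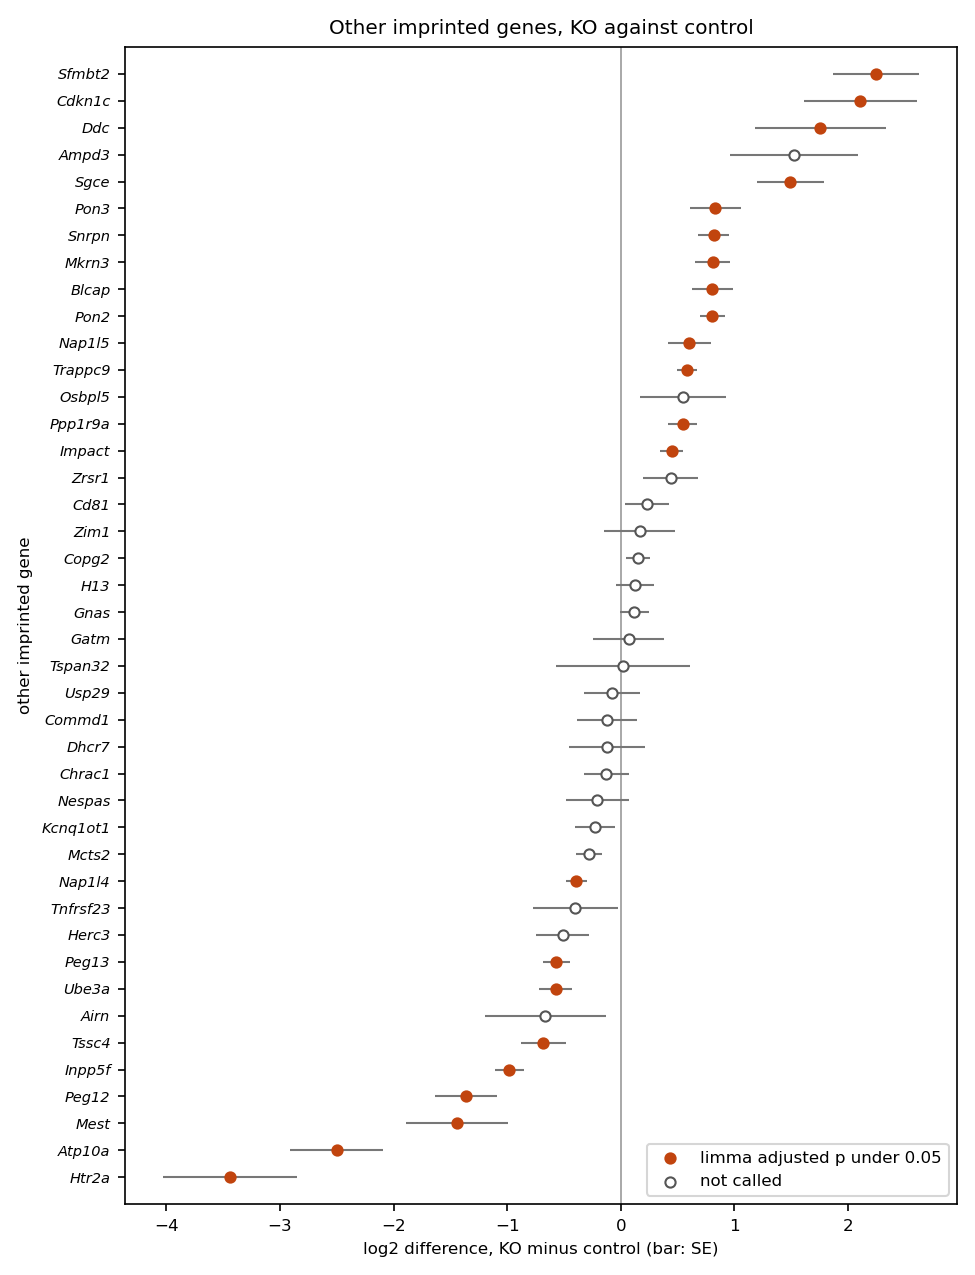
Log2 difference, KO minus control, of the 42 imprinted genes tested outside the member set (bars, SE), filled where the limma adjusted p was under 0.05. Filled points lie on both sides of 0, 13 above and 9 below, with Sfmbt2 at the top and Htr2a at the bottom.

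The Igf axis, the pathway of Igf2, Igf2r and Grb10, was followed through 20 further genes, of which 14 were tested. Of these, limma called 3 higher and 5 lower, where it called 39.3% of all genes tested. Without control replicate 2 it called 3 of the 14, and 2777 of all 15827 genes tested. Igfbp5, an Igf binding protein, was 30483 ± 7841 in KO and 8048 ± 656 in control (SD, n = 6 and 3), a rise of 1.89 ± 0.20 (log2, SE, adjusted p = 0.000502). Igfbp3, the binding protein that carries most circulating Igf, was 25008 ± 10797 in KO and 103745 ± 13596 in control, and fell by 2.18 (log2, SE 0.37, adjusted p = 0.00292). The adaptor gene Irs4 rose by 2.34 ± 0.57 (adjusted p = 0.0111) and Igfals, a subunit of the circulating Igf complex, by 1.66 ± 0.45 (adjusted p = 0.0169), both from low counts. Stc1, of the family that inhibits the proteases of Igf binding proteins, fell by 2.31 (SE 0.56, adjusted p = 0.0110), and the adaptor gene Irs2 fell by 1.01 (SE 0.25, adjusted p = 0.0127). The calls of Igfals (adjusted p = 0.0804), Stc1 (0.0525) and Irs2 (0.0649) were lost without control replicate 2, that of Igfals also without control replicate 1 (0.0556) and that of Irs2 also without control replicate 3 (0.0571).

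Genes with the most similar pattern were sought for each member by Pearson r of log2(value + 1) over the 9 libraries, among 11532 genes with a mean of at least 50. As the highest of so many, these values are descriptions, and the difference between KO and control enters them. Nnat was most like Flot2 and Col18a1 (r = 0.98 each), both of which were high in control only, with means of 6.83 and 101 in KO and 154 and 1197 in control. Plagl1 was most like Ptpn12 and Vwa3b (r = 0.99 each), and Peg10 like Camkk2 and Tfrc (0.99 each). Igf2r was most like Cdc25b and Mtg1 (0.98 each), Peg3 like Taf4b and Mup6 (0.97 each), and Grb10 like Rusc2 and Nisch (0.96 each). H19 was most like Cldn11 (0.92) and Fam69b (0.91), Igf2 like Gbp9 (0.96) and Chst14 (0.90), and Ndn like Syk (0.93) and Edaradd (0.90).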

How the data were processed

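The 9 libraries were mouse BTSC, 3 each of sgRNA1 KO, sgRNA2 KO and control, grouped by the labels. The tools named per the submitters' processing notes are DESeq2, featureCounts and STAR 2.4.1d, the build is mm10, and the annotation release is not given in the sources used here. Each deposited value is a score, called a normalized read count here: judged from the values, the authors scaled the reads of a gene by a library factor and rounded to whole numbers. Totals were 39781901 to 42975283, so Poisson intervals of 95%, taken on the normalized values, are wide only for genes with few reads. Count tests need raw counts and were not run.

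Values were transformed as log2(value + 1), so changes of low genes are understated, and the 15827 of 21899 genes with a mean of at least 10 were tested with limma 3.58.1 (R 4.3.3, mean-variance trend, two-sided) at a Benjamini-Hochberg adjusted p under 0.05 over all of them. KO (6 libraries) was compared with control (3) in a fit with 2 groups, and the guides in a fit with 3. The script was tested on simulated data. Positions and exon lengths came from GENCODE M21 (build GRCm38), which matched 99.6% of genes, and promoter sequences from RefSeq on GRCm38.p6.

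The members, lists and tests were chosen with earlier results of these data known. Named were all members, Gpd1, imprinted genes of a member's cluster, the 6 largest rises and 6 largest falls of other imprinted genes that passed, where the higher group averaged 50 or more, 3 of each in the imprint control and Igf lists, and the 2 genes most like each member. Alternatives were pseudocounts of 0.5 and 5, no filter, a mean of at least 50, quantile normalization, median-of-ratios rescaling, a replicate block, each library left out, and both near-control libraries left out. Figures used Python 3.11.15 with matplotlib 3.10.9.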

Additional observations from a re-analysis of the deposited data

Results flagged for a closer look

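In 42 named genes and members, the 6 KO libraries were searched for a library whose gap to the nearest other on the log2 scale passed Dixon's 95% critical value, as chance does in about 1 in 20 groups, and 5 were found. Nnat had 855 normalized reads in sgRNA1 KO replicate 1, with the other KO libraries at 76 to 174. H19 had 5 in sgRNA1 KO replicate 3, with the others at 19 to 40. Sgce had 367 in sgRNA2 KO replicate 1, with the others at 796 to 1107. Ube3a had 3458 in sgRNA2 KO replicate 3, with the others at 4908 to 5535. Dnmt3a had 7337 in the same library, with the others at 5347 to 5998.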

How the results depend on the processing

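The log2 difference of each member moved by less than its SD between KO libraries in all 151 values recomputed over 17 settings. Leaving out 1 of 6 KO libraries cannot move a KO mean by as much as that SD, so this bound does not measure stability. The difference of Grb10 ran from 2.13 to 3.17 with 1 library left out and was 3.39 without both near-control libraries. Those of Peg3 and Ndn lie near 0 and change sign in some settings. Leaving out 1 library changed the counts most. For KO against control, 6227 genes were called, and 2777 to 7597 with 1 library left out. The low values came from leaving out control replicate 1 (3904), 2 (2777) or 3 (3006). Between the guides, 0 were called, 0 to 182 with 1 library left out and 30 without both near-control libraries. Imprint control genes called were 13, and 5 to 14 with 1 library left out. Igf axis genes called were 8, and 3 to 9 with 1 library left out. Pseudocounts, filters and scaling left every one of these counts within 1.5 times. The causes were not tested.

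Deviations of libraries with the same replicate number in the KO groups correlated at -0.345, 0.332 and 0.0753, and those with different numbers at -0.525 to 0.523. These gave no sign that the numbers pair the libraries, but with 3 libraries per group they cannot show that pairing is absent. With a replicate block, 5786 genes were called in KO against control, 0 between guides and 23 other imprinted, 11 imprint control and 8 Igf axis genes. The block ended the call of Dnmt3a (adjusted p = 0.0566). Depth limits Igf2, H19 and low Grb10 values, where single libraries held 5 to 40 reads.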

Other observations

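Genes that keep or erase imprints were also counted. Of 24 listed, 21 were tested, and limma called 3 higher and 10 lower in KO, where 39.3% of all genes tested were called. Hells, a chromatin remodeller needed for DNA methylation, fell by 2.70 on the log2 scale (SE 0.60, adjusted p = 0.00818), with 426, 479 and 2605 normalized reads in sgRNA1 KO, 2590, 642 and 1341 in sgRNA2 KO, and 6090, 7307 and 6775 in control. Its highest KO libraries were the near-control ones. Uhrf1, which recruits the maintenance methyltransferase, fell by 2.06 (SE 0.63, adjusted p = 0.0277), and Dnmt1, that enzyme, fell by 1.40 (SE 0.41, adjusted p = 0.0238). Dnmt1 had 4269, 4677 and 14527 in sgRNA1 KO, 15259, 6288 and 9544 in sgRNA2 KO, and 20268, 21470 and 21754 in control. Both calls were lost without any 1 of the controls (adjusted p 0.0723, 0.0903 and 0.0878 for Uhrf1, and 0.0648, 0.0810 and 0.0794 for Dnmt1), and that of Uhrf1 also without sgRNA2 KO replicate 2 (0.0540).

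The demethylation genes Tet2 and Tet1 rose by 1.13 ± 0.31 (adjusted p = 0.0175) and 0.57 ± 0.16 (adjusted p = 0.0221), and the methyltransferase gene Dnmt3a rose by 0.35 ± 0.11 (log2, SE, adjusted p = 0.0325). The Tet2 call was lost without control replicate 2 (0.0738) or 3 (0.0621), and that of Tet1 without any 1 of the controls (0.0618, 0.0901 and 0.0722) or both near-control libraries (0.0516). That of Dnmt3a was lost without any 1 of the controls (0.0907, 0.107 and 0.107), and without sgRNA1 KO replicate 1 (0.0533) or sgRNA2 KO replicate 2 (0.0524). Whether DNA methylation at imprinted loci differed was not measured, and the relation of these genes to the members was not tested.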
